A study of Saccharomyces cerevisiae with 8 samples.

Results

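The stretch of chromosome XII around the ribosomal DNA was followed through S phase entry in budding yeast, over the 240 windows of 24133 in the genome whose start lay between positions 400001 and 520000 of the sacCer2 build. The rule for membership used position alone. They were treated as a left side of 101 windows, the ribosomal DNA with 33 windows, a right side of 101 windows, and 5 windows across the borders. The left side ran to position 451000, the ribosomal DNA from 451501 to 468500 and the right side from 469501. The label of the stretch was borne out by the reads, since 5 of the 6 measured windows in its middle lay far above the genome mean before release, up to 69.3 times that mean in Mcm6-SuOn and 67.6 times in control, and no window used on either side reached it.

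Copy number was measured by sequencing genomic DNA of diploid W303 cells at 0, 15, 30 and 40 min after release from a cdc7-4 block, in 2 genotypes with 1 library for each genotype and time. Both strains carried the temperature-sensitive cdc7-4 allele on both chromosomes, and were heterozygous for ADH1-TIR::URA and for Mcm6-aid::HIS3, a form of Mcm6 that auxin removes. One strain was also Mcm6-SuOn::KAN/+ and the other Mcm6-ctrl::KAN/+, called Mcm6-SuOn and control below, and the labels do not describe the SuOn form further. Cells of both strains had been held in mitosis with nocodazole, given auxin (IAA) to degrade Mcm6-aid, warmed to inactivate Cdc7 and then cooled to let S phase begin. All 8 groups therefore share the cdc7-4 allele, the auxin treatment and the TIR protein that auxin acts through, driven by the ADH1 promoter. Each genotype comes from a single strain identifier, and there was no replicate library, so no difference below was tested against the spread between cultures. Intervals are 95% intervals for counting error alone, and PCR copies of a molecule, which carry no identifier here, enter them as separate reads.

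Ribosomal DNA in yeast is a single tandem array of repeats on chromosome XII. Each repeat carries the large ribosomal RNA transcription unit, which gives the 18S, 5.8S and 25S RNAs, and the gene for the 5S RNA, with spacers between them. The spacer holds a weak replication origin, and a barrier bound by the protein Fob1 stops forks that would run against transcription of the large unit. Replication starts at origins licensed by the MCM helicase, of which Mcm6 is a subunit, and the Cdc7 kinase turns that helicase on. A stretch that is replicated earlier than most of the genome gains reads relative to the genome mean, and one that is replicated later loses them.

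Reads used for scaling, which leave out the ribosomal DNA and windows with low counts, numbered 13643646 to 23116301 per Mcm6-SuOn library and 15260781 to 17642132 per control library. A window held a mean of 1195.1 to 2024.9 reads in Mcm6-SuOn and 1336.8 to 1545.4 in control. In the text, level means the reads of a stretch per window divided by the mean of all windows used in that library. Relative copy number means the level at a later time divided by the level at 0 min in the same genotype. The 0 min control library stands behind every relative copy number of the control, and its level on the left side was the lowest of the 8 libraries, so levels are given first throughout.

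Only a short stretch inside the ribosomal DNA could be measured. Of its 33 windows, 24 held 0 reads in both 0 min libraries, and 6 were listed with a ratio in all 6 later tables. Those 6 overlap each other and lie in 1 block at positions 458501 to 462000, between windows without reads on both sides. In the R64 gene table, which was used for names and order and not for positions, RDN37-1 and RDN37-2 are the copies of the large transcription unit and RDN5-1, a 5S gene, lies between them. How reads with several matching places were treated is not given in the sources used here.

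The measured block had very high counts. Its fullest window, 459501 to 460500, held 110408 reads in Mcm6-SuOn and 90298 in control at 0 min. This gave levels of 69.3, 68.2, 71.1 and 83.5 at 0, 15, 30 and 40 min in Mcm6-SuOn. The control levels of the window were 67.6, 74.3, 69.8 and 78.1. The number of repeats cannot be read from these levels, because the part of each repeat that took up reads is not known.

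A second gap lay on the right side next to the array. From 470001 to 488000, 18 windows that do not overlap held 24 reads in the Mcm6-SuOn library and 8 in the control library at 0 min. At the genome mean they would have held 28681 reads in Mcm6-SuOn and 24062 in control. Between the ribosomal DNA and MAS1, which codes for a subunit of the mitochondrial processing peptidase, the R64 gene table lists 4 copies of ASP3, the gene of a cell wall asparaginase, and further copies of RDN5. Whether this DNA is present in the strains cannot be read from these tables. As a result, the right side was measured from position 490001 on, in 60 of its 101 windows, whereas all 101 windows of the left side were listed. Over the genome 94.7% of windows were listed in all 6 later tables, against 70.0% in the stretch.

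Coverage dipped around the ribosomal DNA before release and was still low at 15 and 30 min. In blocks of 50 kb, the block at 400001 to 450000 had a level of 0.783 in Mcm6-SuOn at 0 min, the lowest of 248 blocks in the genome. In control at 0 min it stood at 0.709 and was the sixth lowest, with the lowest control level, 0.511, at chromosome XIII 900001 to 950000. The block was again the lowest of 248 at 15 min in both genotypes, at 0.756 in Mcm6-SuOn and 0.795 in control. The next block, 450001 to 500000, which rests on 11 windows, was second lowest at 0 min in Mcm6-SuOn with 0.808, and in control it had 0.772 and was number 17 from the lowest.

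Within chromosome XII, 1 of these 2 blocks was the lowest of 22 in each of the 8 libraries. It was the block at 400001 at 0 and 15 min and the block at 450001 at 30 and 40 min, in both genotypes. The dip was shallower at 40 min on the left, where the block at 400001 reached 0.888 in Mcm6-SuOn (rank 37 from the lowest) and 0.907 in control (rank 40). The 10 kb next to the left border, 441001 to 451000, were then above the genome mean, at 1.07 in Mcm6-SuOn and 1.03 in control. To the right the level climbed with distance, to 0.874 in the block at 500001 and 1.01 in the block at 650001 in Mcm6-SuOn at 0 min, and to 0.889 and 1.18 in control.

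**Figure D1:**
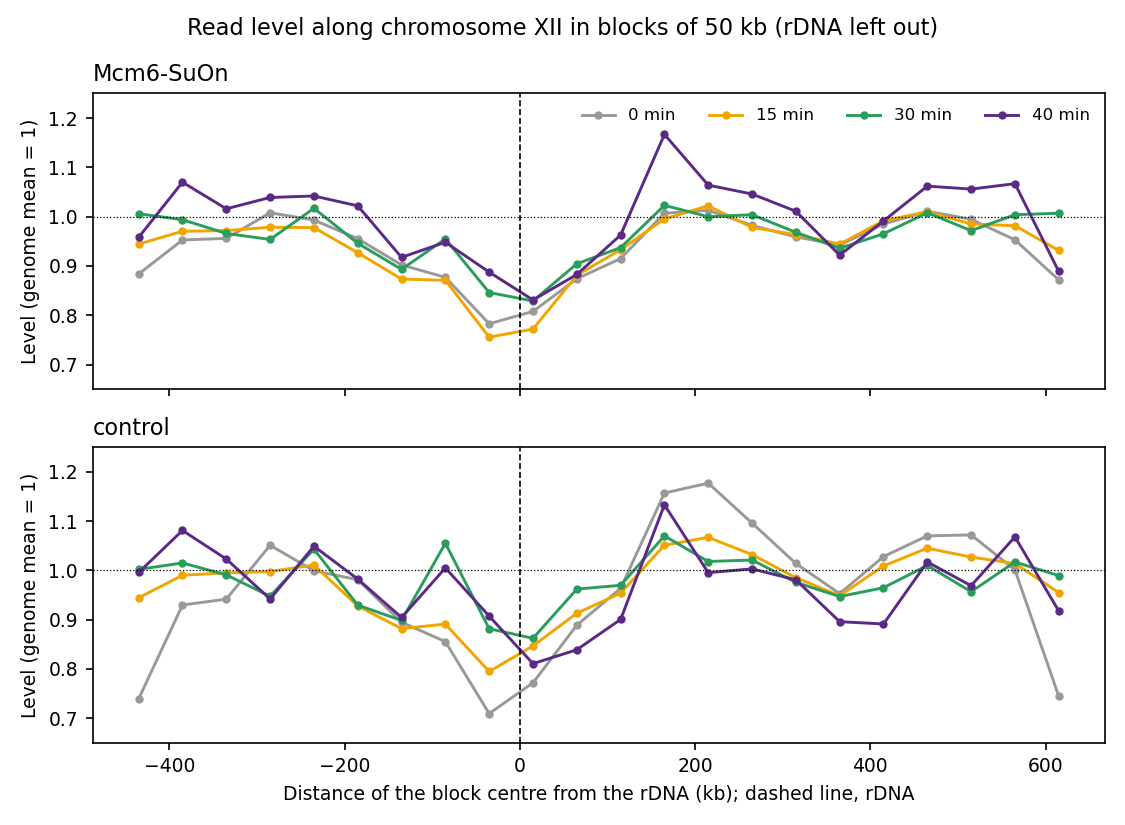
Mean read level (y axis, genome mean = 1) of blocks of 50 kb along chromosome XII against the distance of the block centre from the ribosomal DNA in kb (x axis), with 1 line per time, Mcm6-SuOn above and control below. In every library the lowest block is one of those beside the dashed line, with levels between 0.709 and 0.862.

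On the left side both genotypes gained reads over time, and at 15 min they moved in opposite directions from their own 0 min libraries. Levels in Mcm6-SuOn were 0.783, 0.756, 0.848 and 0.892 at 0, 15, 30 and 40 min. In control they were 0.712, 0.797, 0.884 and 0.909. Mcm6-SuOn thus stood above control at 0 min, with a ratio of levels of 1.1 (1.09 to 1.11), and below it at each later time, with ratios of 0.948 (0.937 to 0.960), 0.960 (0.9497 to 0.971) and 0.982 (0.972 to 0.991).

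Taken over the 0 min library of the same genotype, the left side had a relative copy number of 0.965 (0.953 to 0.977) in Mcm6-SuOn and 1.12 (1.11 to 1.13) in control at 15 min. At 30 min the values were 1.08 (1.07 to 1.095) in Mcm6-SuOn and 1.24 (1.23 to 1.26) in control, and at 40 min 1.14 (1.13 to 1.15) in Mcm6-SuOn and 1.28 (1.26 to 1.29) in control. The genotype ratio of these values was 0.862 (0.847 to 0.877) at 15 min, 0.873 (0.859 to 0.887) at 30 min and 0.892 (0.878 to 0.906) at 40 min. Over the 0 min reads of both genotypes pooled, which gives the ratios of levels above, the difference shrank to 5.16%, 4.00% and 1.85%. On that base the relative copy number at 15 min was 1.01 in Mcm6-SuOn and 1.06 in control, so the directions were no longer opposite. With chromosome XII outside the stretch as the scale, the value at 40 min over the own 0 min library was 1.075 in Mcm6-SuOn and 1.28 in control. Whether the control was low or Mcm6-SuOn high at 0 min cannot be told apart with 1 library of each.

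Window by window, 38 of 51 left windows that do not overlap were lower in Mcm6-SuOn by more than 1.1-fold at 15 min, against 18.3% of windows in the genome. At 30 min 26 of 51 were lower (genome 21.4%) and at 40 min 29 of 51 (genome 24.9%). Windows higher by more than 1.1-fold numbered 1, 1 and 2, where the genome had 16.8%, 20.6% and 26.3%. Over the pooled 0 min reads the lower windows numbered 13, 15 and 10 of 51, beside 5.83%, 9.20% and 10.8% of the genome.

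**Figure D2:**
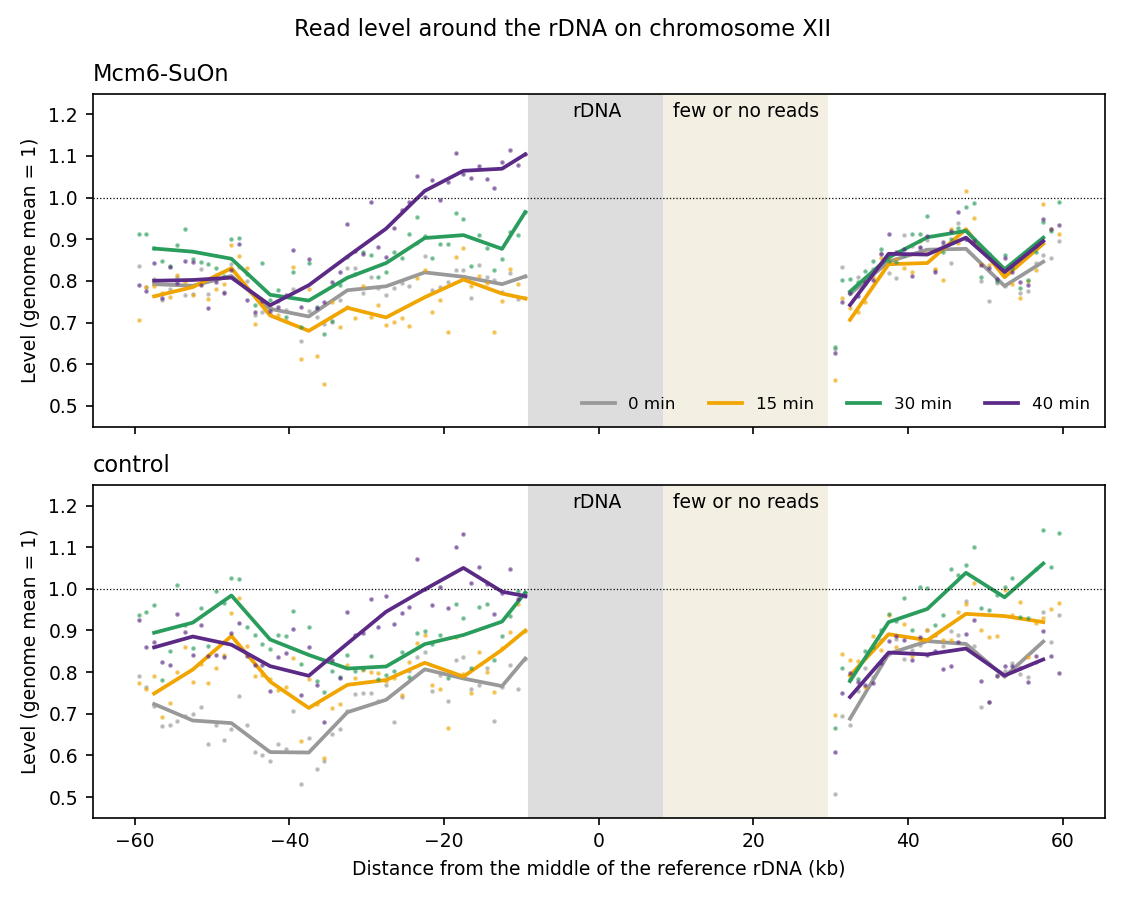
Read level (y axis, genome mean = 1) of windows of 1 kb around the ribosomal DNA against the distance from its middle in kb (x axis), with Mcm6-SuOn above and control below. Points are windows, lines are means over 5 kb and colours are times, the grey band is the ribosomal DNA, whose windows are off the scale, and the pale band is the gap beside it. Levels in the 10 kb next to the left border climb from 15 to 40 min in both genotypes, while the right side of Mcm6-SuOn stays between 0.833 and 0.865 on average.

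A local maximum on the left side lay at 416501 to 417500 and was higher in control. It was found by the naming rule on the smoothed ratio averaged over the 6 later libraries, and those profiles vary more in control, so its position is a description. At 15 min the highest smoothed ratio of the left side lay at 414001 to 415000 in both genotypes. It was 1.01 in Mcm6-SuOn and 1.29 in control. At 30 and 40 min the highest window of Mcm6-SuOn lay near the left border instead, at 447001 and 448001. In the 6 windows around the local maximum, levels in Mcm6-SuOn were 0.744, 0.736, 0.775 and 0.744 at 0, 15, 30 and 40 min. In control they were 0.619, 0.791, 0.883 and 0.818. The control level was thus lowest at 0 min and highest at 30 min, while the 4 Mcm6-SuOn levels lay between 0.736 and 0.775.

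The relative copy number at this place was 0.9895 (0.955 to 1.03) in Mcm6-SuOn and 1.28 (1.23 to 1.33) in control at 15 min. At 30 min it was 1.04 (1.01 to 1.08) in Mcm6-SuOn and 1.43 (1.38 to 1.48) in control, and at 40 min 0.9995 (0.969 to 1.03) in Mcm6-SuOn and 1.32 (1.28 to 1.37) in control. The 10 kb around it, 411001 to 421000, showed the widest gap between the genotypes at 0 min as well, with levels of 0.769 in Mcm6-SuOn and 0.646 in control. Compared directly at 30 min, levels there were 0.809 in Mcm6-SuOn and 0.926 in control, a ratio of 0.873 (0.852 to 0.895), which uses neither 0 min library. The place was picked from ratios that include these libraries, so the difference there is a description.

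A second local maximum by the same rule lay at 448001 to 449000, near the left border. Levels around it were 0.793, 0.762, 0.894 and 1.08 at 0, 15, 30 and 40 min in Mcm6-SuOn, and 0.771, 0.874, 0.927 and 0.987 in control. Both genotypes were highest at 40 min, and Mcm6-SuOn was then above control.

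The nearest 10 kb, 441001 to 451000, had levels of 0.802, 0.794, 0.901 and 1.07 in Mcm6-SuOn and 0.786, 0.845, 0.926 and 1.03 in control. Relative copy number at 40 min was 1.34 (1.31 to 1.37) in Mcm6-SuOn and 1.304 (1.27 to 1.34) in control. Going away from the array, the value at 40 min in Mcm6-SuOn was 1.215, 1.12, 1.02 and 1.02 in the following bins of 10 kb. In control these bins had 1.26, 1.27, 1.31 and 1.249. Relative copy number thus sloped toward the array in Mcm6-SuOn, while the 5 control bins lay between 1.249 and 1.31. The levels themselves at 40 min were 0.975, 0.836, 0.782 and 0.802 in these bins of Mcm6-SuOn and 0.970, 0.837, 0.846 and 0.864 in those of control. In both genotypes they fell from the nearest bin out to the bin at 421001. Beyond it, levels rose slightly with distance in control.

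**Figure D3:**
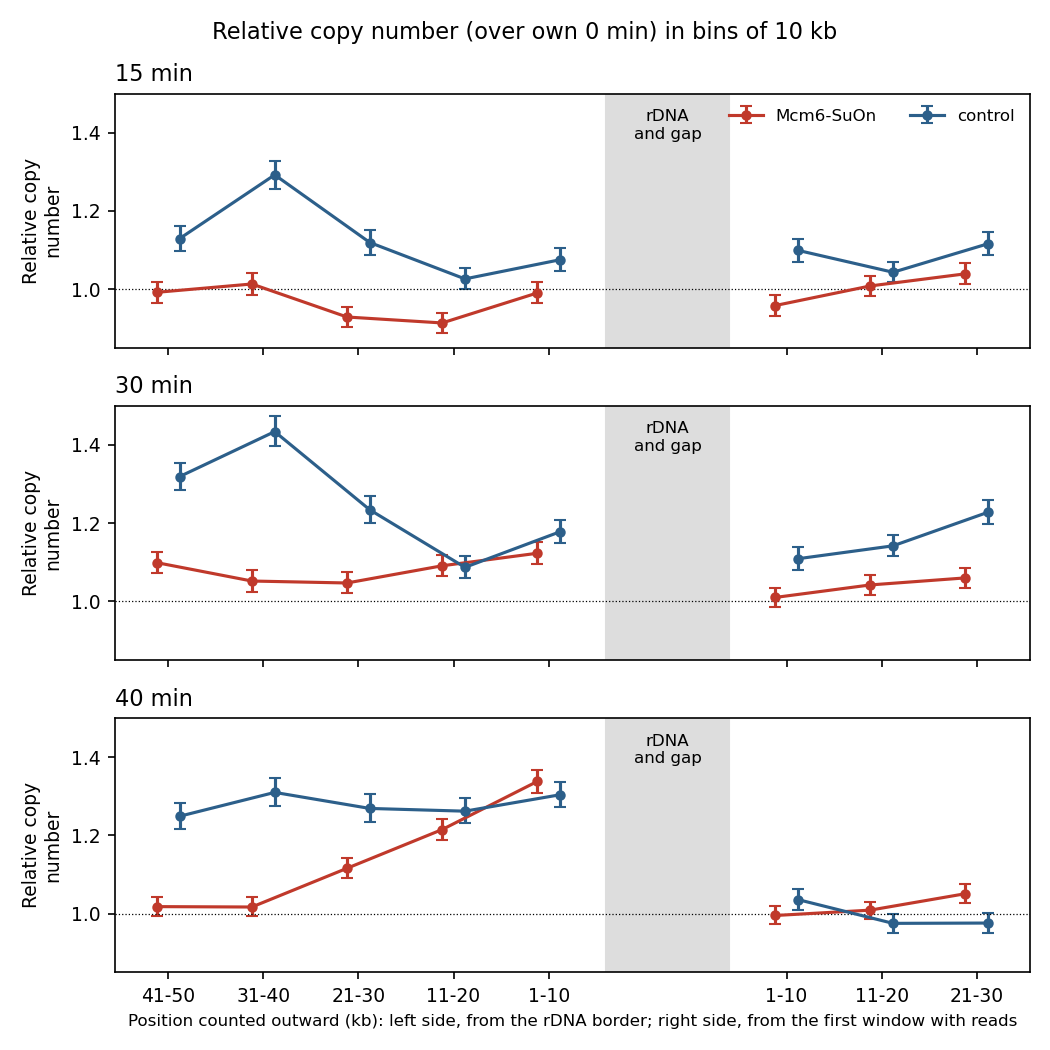
Relative copy number (y axis, level over the level at 0 min of the same genotype) in bins of 10 kb counted outward from the ribosomal DNA on the left and from the first window with reads on the right (x axis, kb), at 15, 30 and 40 min from top to bottom. Bars are 95% counting intervals of single libraries. Control is highest at 31-40 kb on the left at 15 and 30 min, and at 40 min Mcm6-SuOn climbs from 1.02 to 1.34 toward the array.

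Inside the array the measured block changed little until 30 min in Mcm6-SuOn and was higher at 40 min in both genotypes. Levels over the 3 windows that do not overlap were 32.2, 31.4, 32.7 and 38.7 at 0, 15, 30 and 40 min in Mcm6-SuOn. In control they were 31.1, 34.1, 32.0 and 35.9. The control was thus above its 0 min level at 15 min, near it at 30 min and above it again at 40 min, whereas Mcm6-SuOn stood apart from its earlier values at 40 min.

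Relative copy number of the block was 0.976 (0.969 to 0.984) in Mcm6-SuOn and 1.098 (1.09 to 1.11) in control at 15 min. At 30 min it was 1.02 (1.01 to 1.02) in Mcm6-SuOn and 1.03 (1.02 to 1.04) in control, and at 40 min 1.203 (1.195 to 1.21) in Mcm6-SuOn and 1.156 (1.15 to 1.17) in control. The genotype ratio was 0.889 (0.879 to 0.899), 0.987 (0.977 to 0.998) and 1.04 (1.03 to 1.05) at the 3 times. At 30 and 40 min its direction was not settled, at 1.02 and 1.08 over the pooled 0 min reads and 0.969 and 0.977 with the rest of chromosome XII as the scale. The block held 112710 to 235352 reads per library in Mcm6-SuOn and 124604 to 159181 in control, so these intervals are narrow, and differences between libraries from handling are not part of them. All 3 windows were lower in Mcm6-SuOn by more than 1.1-fold at 15 min, none at 30 min and none at 40 min, when 1 was higher. The genome had 18.3%, 21.4% and 24.9% lower at these times and 26.3% higher at 40 min. With 3 adjoining windows of 1 block, the counts at 15, 30 and 40 min cannot be read as a departure from those shares. Over the pooled 0 min reads the genotype ratio of the block at 15 min was 0.921, short of 1.1-fold.

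The 6 overlapping windows of the block did not all move alike. In the 5 windows up to 461500, relative copy number at 40 min lay between 1.19 and 1.24 in Mcm6-SuOn and between 1.14 and 1.157 in control. At 30 min in Mcm6-SuOn, the left end window 458501 to 459500 had 0.948 (0.914 to 0.982), below its 0 min level, where the window at 459501 had 1.03 (1.02 to 1.04). The last window, 461001 to 462000, rested on 1392 reads in Mcm6-SuOn and 973 in control at 0 min. Its values in Mcm6-SuOn were 0.785 (0.7196 to 0.857), 0.899 (0.831 to 0.973) and 1.35 (1.26 to 1.44) at 15, 30 and 40 min. In control they were 1.08 (0.9904 to 1.18), 0.957 (0.876 to 1.04) and 1.12 (1.03 to 1.221). This window had a level below 1 at 0 min in both genotypes, 0.874 in Mcm6-SuOn and 0.728 in control. The window before it, 460501 to 461500, had 27.2 in Mcm6-SuOn and 25.9 in control.

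**Figure D4:**
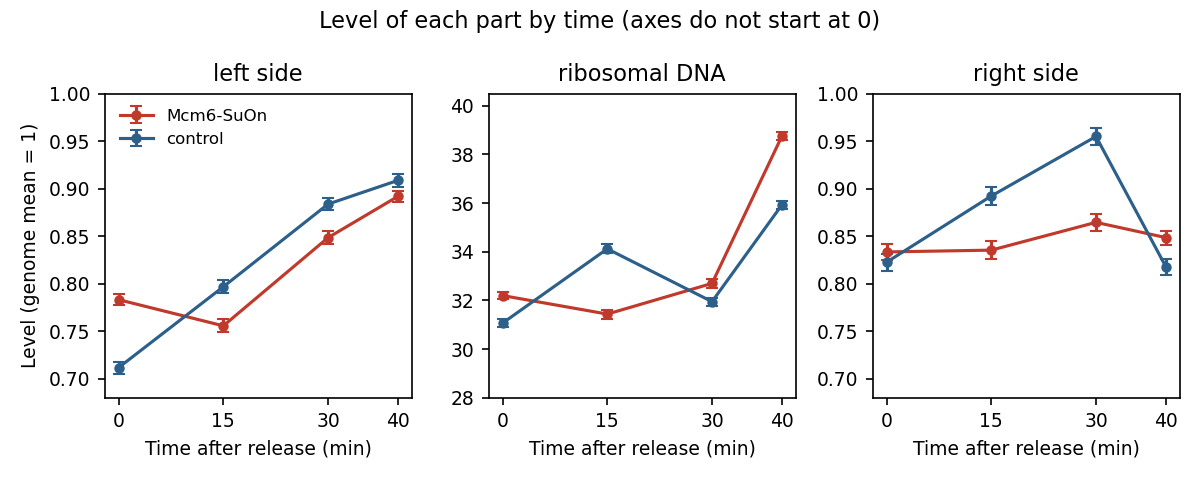
Read level (y axis, genome mean = 1, not starting at 0) against time after release in min (x axis) for the left side, the ribosomal DNA and the right side, in Mcm6-SuOn and control. Bars are 95% counting intervals of single libraries. Both genotypes are highest at 40 min on the left and in the ribosomal DNA, while on the right the control peaks at 30 min with 0.955 and Mcm6-SuOn stays between 0.833 and 0.865.

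On the right side control cells gained reads until 30 min and had lost them again by 40 min, while Mcm6-SuOn changed little. Levels were 0.833, 0.835, 0.865 and 0.849 at 0, 15, 30 and 40 min in Mcm6-SuOn. In control they were 0.823, 0.892, 0.955 and 0.818. At 0 min the genotypes did not differ beyond counting error, with a ratio of levels of 1.01 (0.9985 to 1.03). Taken as a whole, the right side is thus the one where the 0 min libraries bear least on the comparison. Its bins of 10 kb were not alike at 0 min. The bin at 490001 had a ratio of 1.05 (1.03 to 1.08), the bin at 500001 1.01 and the bin at 510001 0.983. With chromosome XII outside the stretch as the scale, the whole side had 1.05.

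Relative copy number of the right side was 1.002 (0.987 to 1.02) in Mcm6-SuOn and 1.09 (1.07 to 1.101) in control at 15 min. At 30 min it was 1.04 (1.02 to 1.05) in Mcm6-SuOn and 1.161 (1.14 to 1.18) in control, and at 40 min 1.02 (1.01 to 1.03) in Mcm6-SuOn and 0.994 (0.9797 to 1.01) in control. The genotype ratio was 0.924 (0.905 to 0.944), 0.894 (0.876 to 0.912) and 1.02 (1.004 to 1.04). The first 2 were alike over the pooled 0 min reads, at 0.936 and 0.906. With chromosome XII outside the stretch as the scale, the ratio at 40 min turned to 0.961, so its direction was not settled.

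Of 30 right windows that do not overlap, 14, 18 and 3 were lower in Mcm6-SuOn by more than 1.1-fold at 15, 30 and 40 min, against 18.3%, 21.4% and 24.9% of windows in the genome. Higher windows numbered 3, 0 and 5, beside 16.8%, 20.6% and 26.3% of the genome. At 15 and 30 min the right side thus had a larger share of lower windows than the genome as a whole, and at 40 min a smaller one. With the rest of chromosome XII as the scale, 12.5% of the genome was higher and 38.6% lower at 40 min, and 2 right windows were higher and 8 lower.

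A local maximum on the right lay at 511001 to 512000. Levels around it were 0.794, 0.825, 0.833 and 0.8295 at 0, 15, 30 and 40 min in Mcm6-SuOn and 0.773, 0.921, 0.984 and 0.786 in control. The control stood apart at 15 and 30 min, with relative copy numbers of 1.19 (1.15 to 1.24) and 1.27 (1.23 to 1.32), where Mcm6-SuOn had 1.04 (1.001 to 1.08) and 1.05 (1.01 to 1.09). At 40 min the values were 1.05 (1.01 to 1.08) in Mcm6-SuOn and 1.02 (0.979 to 1.06) in control, and their intervals overlapped. The outermost bin, 510001 to 520000, showed the largest direct difference of the right side, with levels of 0.866 in Mcm6-SuOn and 1.02 in control at 30 min, a ratio of 0.849 (0.829 to 0.869).

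The window next to the gap, 490001 to 491000, had the lowest 0 min level of the right side in both genotypes, at 0.636 in Mcm6-SuOn and 0.508 in control. On the left the lowest window was 421001 to 422000, at 0.656 in Mcm6-SuOn and 0.531 in control. The highest windows at 0 min were 436001 to 437000 on the left and 506001 to 507000 on the right in Mcm6-SuOn, at 0.891 and 0.9395. In control they were 437001 to 438000 and 507001 to 508000, at 0.848 and 0.970. No window used on either side reached the genome mean at 0 min in either genotype.

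The nearest measured 10 kb on either side of the array held similar reads before release and differed at 40 min. The whole sides already differed at 0 min. Their levels were then 0.783 on the left and 0.833 on the right in Mcm6-SuOn, and 0.712 on the left and 0.823 on the right in control. Reads in the nearest 10 kb on the left over those in the first 10 kb with reads on the right gave 0.994 (0.970 to 1.02), 1.03 (0.998 to 1.06), 1.11 (1.08 to 1.13) and 1.34 (1.31 to 1.36) at 0, 15, 30 and 40 min in Mcm6-SuOn. In control the ratios were 1.03 (0.998 to 1.05), 1.004 (0.978 to 1.03), 1.09 (1.06 to 1.12) and 1.29 (1.26 to 1.32). Both genotypes therefore had more reads in the nearest 10 kb on the left than in the first 10 kb with reads on the right at 30 and 40 min. This ratio is taken within a library and needs neither the library scale nor the 0 min reads. It does not compare equal distances from the array. The left stretch ends at 451000, next to the array, and the right one starts at 490001, beyond the gap. How far this enters the ratio was not tested.

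The array did not follow its flanks in a fixed proportion. Its level over that of both sides together was 40.2, 40.04, 38.3 and 44.2 at 0, 15, 30 and 40 min in Mcm6-SuOn. In control it was 41.3, 41.0, 35.1 and 41.05. It was lowest at 30 min in both genotypes, and from 30 to 40 min the block itself was higher by a factor of 1.19 (1.18 to 1.19) in Mcm6-SuOn and 1.12 (1.12 to 1.13) in control. Over the same interval the left side had factors of 1.05 (1.04 to 1.06) in Mcm6-SuOn and 1.03 (1.02 to 1.04) in control, and the right side 0.982 (0.969 to 0.995) in Mcm6-SuOn and 0.857 (0.845 to 0.869) in control.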

How the data were processed

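Genomic DNA of 8 libraries was sequenced, 1 per genotype and time. For 0 min the authors deposited raw read counts in windows of 1000 bp every 500 bp. For later times they deposited a ratio per window of the later count over the 0 min count of the same genotype, that ratio scaled per chromosome, and a smoothed form, as seen from the values and per the file headers. The submitters' processing notes name sacCer2 as the genome build. The aligner, read filters and counting program are not given in the sources used here. Windows with at most 600 reads are listed at 0.

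Later reads were recovered as ratio times 0 min count (whole within rounding in 100% of windows with at most 1000 reads at 0 min, a weak check) and summed over windows that start at a whole kilobase, so that each read counts once, and that are listed in all 6 later tables (11416 outside the ribosomal DNA). Libraries were scaled to those 11416 windows. Intervals of a ratio of 2 counts are exact binomial, those of levels exact Poisson, and those of genotype ratios use a normal approximation on the log scale. Ratios beyond 1.1-fold were counted. With 1 library per group no test was run. The script was tested on simulated data (Python 3.11.15, numpy 2.4.6, pandas 2.3.3, scipy 1.17.1). The naming rule took peaks of the averaged smoothed ratio with a prominence of at least 0.05, the highest and lowest 0 min window of each part, and windows listed at 0. Blocks of 50 kb, bins of 10 kb and the flank ratio were added after seeing the data. The region, borders and alternatives were chosen with earlier results of these data known. The R64 gene table gave names and order only, and no genome sequence was used here.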

Additional observations from a re-analysis of the deposited data

Results flagged for a closer look

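At 15 min the genotypes moved in opposite directions from their own 0 min libraries, with both counting intervals on their side of 1, in 2 of the 3 parts. On the left side the relative copy number was 0.965 in Mcm6-SuOn and 1.12 in control. In the ribosomal DNA it was 0.976 in Mcm6-SuOn and 1.098 in control. With 1 library per group the difference was not tested. Over the pooled 0 min reads the left side had 1.01 in Mcm6-SuOn and 1.06 in control, so the directions were then no longer opposite there, and the ribosomal DNA had 0.992 in Mcm6-SuOn and 1.08 in control.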

How the results depend on the processing

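Moving the borders by 1 kb, using the windows that start between whole kilobases, and leaving out right windows before 490 kb (none of which was used in the first place) kept every ratio of 0 min levels, relative copy number and genotype ratio run under them within its counting interval. Values outside that interval, and counts of windows that moved by more than 1.5 times, under the other settings follow, in the order 15, 30 and 40 min where 3 are given. Over the pooled 0 min reads, the genotype ratio was 0.948, 0.960 and 0.982 on the left and 0.921, 1.02 and 1.08 in the ribosomal DNA, where it crossed 1 at 30 min. Relative copy number on the left was then 1.01, 1.13 and 1.19 in Mcm6-SuOn and 1.06, 1.18 and 1.21 in control, and in the ribosomal DNA 0.992, 1.03 and 1.22 in Mcm6-SuOn and 1.08, 1.01 and 1.13 in control. Left windows lower in Mcm6-SuOn numbered 13, 15 and 10 (higher ones 2 at 15 min and 2 at 30 min), with 0 higher right windows at 15 min and 0 lower ones at 40 min. Over the same pooled reads, the genome had 5.83%, 9.20% and 10.8% lower, and 5.57% and 8.84% higher at 15 and 30 min. With chromosome XII outside the stretch as the scale, Mcm6-SuOn over control at 0 min was 1.14 on the left, 1.07 in the ribosomal DNA and 1.05 on the right. The genotype ratio was 0.857 and 0.837 on the left and 0.969 and 0.977 in the ribosomal DNA at 30 and 40 min, and 0.961 on the right at 40 min. The 40 min values of the ribosomal DNA and the right side lie on the other side of 1, and the cause was not tested. Relative copy number in Mcm6-SuOn at 30 and 40 min was 1.07 and 1.075 on the left, 0.9995 and 1.14 in the ribosomal DNA and 1.02 and 0.961 on the right. At 40 min 0 left windows were higher, and on the right 2 were higher and 8 lower, beside 12.5% higher and 38.6% lower in the genome. With the deposited ratio scaled per chromosome, the genotype ratio was 0.855 on the left and 0.978 on the right at 40 min, and 0.845, 0.975 and 1.06 in the ribosomal DNA. Relative copy number was then 1.06 and 1.07 in Mcm6-SuOn and 1.22 and 1.251 in control on the left at 30 and 40 min. In the ribosomal DNA it was 0.915, 0.953 and 1.18 in Mcm6-SuOn and 1.08, 0.978 and 1.12 in control, and on the right 1.01 and 0.958 in Mcm6-SuOn and 1.13 and 0.979 in control at 30 and 40 min. With at least 1000 reads at 0 min in both genotypes, which left 19 left, 2 ribosomal DNA and 25 right windows, the 0 min ratio was 1.03 on the left and 1.05 in the ribosomal DNA. The genotype ratio was 0.915, 0.972 and 0.977 on the left and 1.03 at 40 min in the ribosomal DNA. Relative copy number on the left was 1.12 and 1.24 in Mcm6-SuOn at 30 and 40 min and 1.06 and 1.15 in control at 15 and 30 min, and in the ribosomal DNA 1.11, 1.04 and 1.17 in control. With medians of window values, the 0 min ratio in the ribosomal DNA was 1.04, and the genotype ratio 0.905 on the left at 30 min and 0.966 and 1.07 in the ribosomal DNA at 30 and 40 min. Relative copy number on the left was 1.12 in Mcm6-SuOn at 40 min and 1.1 and 1.23 in control at 15 and 30 min, and in the ribosomal DNA 1.24 in Mcm6-SuOn at 40 min and 1.09 in control at 15 min. Beyond 1.2-fold, 20 left windows were lower at 15 min and 16 at 40 min, with 0 higher at any time, beside 6.79% and 12.3% lower and 2.38%, 4.90% and 8.85% higher in the genome. On the right 7, 7 and 1 were lower (genome 6.79%, 8.44% and 12.3%), and 0 were higher at 15 min and 2 at 40 min. No paired analysis was possible because each group holds 1 library, so the groups share only 1 replicate number. A model of genotype and time without their interaction, with times standing in for replicates, was not run. Depth limits single windows, and 1 library per group leaves the spread between cultures unknown.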
